A study of Mus musculus with 9 samples.

Results

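The genes of elastic fibres and their microfibrils were followed in MC3T3-E1 cells exposed to low-intensity pulsed ultrasound (LIPUS), a treatment used as an adjunct to fracture healing. The 10 genes were the elastin gene *Eln*, the fibrillin genes *Fbn1* and *Fbn2*, the fibulin genes *Fbln1*, *Fbln2* and *Fbln5*, the microfibril-associated genes *Mfap2*, *Mfap4* and *Mfap5*, and the lysyl oxidase gene *Lox*. These genes were listed with earlier results of these data known. Their probe sets were taken by gene symbol alone, and every probe set that the annotation of the array assigns to a single one of these symbols was included. This gave 19 of the 45037 probe sets compared, for 9 of the 10 genes and of 18193 genes named on the array: 1 gene had 1 probe set, 6 had 2 and 2 had 3. *Fbn1* was not analysed here, because the annotation used names no probe set for it, and no count or comparison below covers it.

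MC3T3-E1 is a single established line of preosteoblasts from the calvaria of newborn C57BL/6 mice, and all groups came from this line. All cells were grown for 14 days with ascorbic acid and β-glycerophosphate, trypsinized, and reseeded for 24 h. The groups were LIPUS 24 h and LIPUS 6 h, in which cells received 1 exposure of 20 min at 1.5 MHz and 30 mW/cm2 and were cultured for a further 24 h or 6 h, and Control, which was mock-treated. Each group had 3 arrays, 1 from each of 3 repeated experiments. The culture time of the mock-treated cells is not given in the sources used here, so that LIPUS and time in culture cannot be told apart. The sources do not state that the repeats were separate cultures. The p-values of the main comparisons measure the spread left between these arrays after the level of each experiment is removed.

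An elastic fibre has a core of elastin laid down on a scaffold of microfibrils, whose backbone is fibrillin. Microfibril-associated glycoproteins bind fibrillin, fibulins link tropoelastin to the microfibril and to the cell surface, and lysyl oxidase crosslinks the lysines of elastin and of fibrillar collagen. Bone holds little elastin, but osteoblasts make fibrillin microfibrils, which store growth factors of the TGF-β family, and lysyl oxidase stabilizes the collagen of bone matrix.

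The values were log2 signals, so that a difference of 1 is a 2-fold change, and they were compared with limma, in which each experiment was a block of its own. A probe set was called changed at an adjusted p under 0.05 over all 45037 probe sets. The signal of one probe set cannot be set against that of another, because probes differ in how well they bind. The median of all probe-set means was 4.99, and 6 of the 19 probe sets lay below it. The experiments differed from each other in the form of the deposited values. On an array of experiment 1 there were between 40716 and 40936 different signals among the probe sets, against 15337 to 16097 in experiment 2 and 13358 to 20047 in experiment 3. In experiments 2 and 3, 48.4% and 31.9% of all probe sets had exactly the same value on the LIPUS 24 h and the control array, against 1.26% in experiment 1. Among the 19 probe sets, 6 in experiment 2, 3 in experiment 3 and none in experiment 1 had such equal values. Of 10 listed osteoblast markers 7 were measured, and *Runx2*, *Bglap* and *Spp1* were not analysed here. Of these 7, 5 lay above the median of the array, namely *Col1a1*, *Col1a2*, *Sparc*, *Sp7* and, at 5.07 only slightly above it, *Alpl*, whereas *Ibsp* and *Phex* lay below. None of the 7 was called changed in any comparison, whereas 1.8% of all probe sets were called higher and 0.933% lower at 24 h against control.

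**Figure D1:**
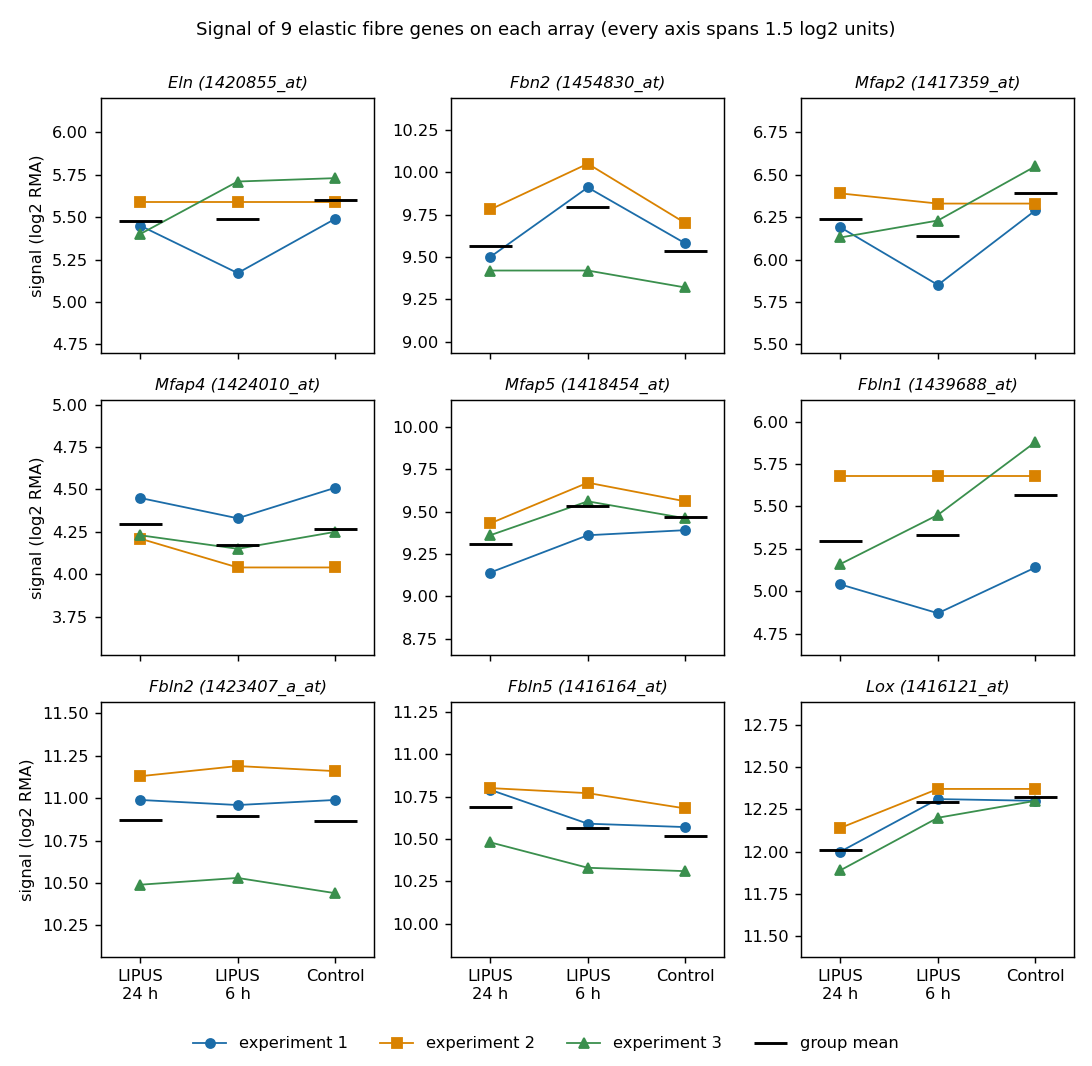
The log2 signal of the brightest probe set of each of the 9 measured genes on every array, for LIPUS 24 h, LIPUS 6 h and Control, with 1 coloured line for each experiment and a black bar for the group mean. *Lox* at LIPUS 24 h, at 11.89 to 12.14, lies below all arrays of the other groups, whereas for *Fbln2* the experiments stand farther apart than the groups.

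*Lox*, which encodes the copper-dependent enzyme that starts the crosslinking of elastin and collagen, was the only one of the 9 measured genes that passed the test at 24 h after LIPUS against control, and it was lower. Its probe set 1416121_at had 12.00, 12.14 and 11.89 in LIPUS 24 h cells of experiments 1, 2 and 3. It had 12.31, 12.37 and 12.20 in LIPUS 6 h cells and 12.30, 12.37 and 12.30 in control cells. Every LIPUS 24 h array was thus below every array of the other groups. Relative to control the difference was -0.31 (SE 0.03, 95% interval -0.39 to -0.24, adjusted p = 0.00477 with limma), which as a ratio within experiments was 0.805 ± 0.0467 (SD, n = 3). The log2 ratios of the 3 experiments were -0.30, -0.24 and -0.40. These are bulk cultures, in which less RNA per cell and fewer cells that make it cannot be told apart.

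Another probe set of *Lox*, 1448228_at, had 11.24, 11.37 and 10.15 in LIPUS 24 h cells, 11.77, 11.92 and 10.65 in LIPUS 6 h cells, and 11.61, 11.81 and 10.53 in control cells. The arrays of experiment 3 were the lowest of every group for this probe set, so that the groups overlapped, but within each experiment LIPUS 24 h was the lowest array. The difference from control was -0.40 (SE 0.02, 95% interval -0.45 to -0.34, adjusted p = 6.17e-04 with limma), a ratio of 0.759 ± 0.0201 (SD, n = 3). The log2 ratios of -0.37, -0.44 and -0.38 were close to each other although the levels were not. The annotation gives both probe sets the same transcript record, so they are readings of the same RNA and not separate evidence. The remaining *Lox* probe set, 1437903_at, was dim, with an average of 3.69 over all arrays. It had 3.17, 4.12 and 3.40 in LIPUS 24 h cells, 3.78, 4.12 and 3.40 in LIPUS 6 h cells, and 3.67, 4.12 and 3.40 in control cells. Its values in experiments 2 and 3 were the same in all groups, and it was not called (-0.17, adjusted p = 0.648 with limma).

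Of the 19 probe sets, 0 were called higher and 2 lower at 24 h against control, both of them *Lox*. Over the whole array 1.8% of the probe sets were called higher and 0.933% lower. Counted over genes with the brightest probe set for each, 1 of 9 was lower. The median log2 difference of the 19 was -0.07, and that of all probe sets was 0.00. The groups did not overlap for 1 of the 19, against 1.47% of all probe sets, and 7 of the 19 had the same direction in all 3 experiments, against 17.1% of all probe sets.

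The call on *Lox* depended on how the arrays were compared. In this balanced design most alternatives leave the size of a difference as it is, whatever the data. Only quantile normalization, array weights and leaving out an experiment can move it. Over these, the difference lay between -0.35 and -0.25 for 1416121_at and between -0.44 and -0.38 for 1448228_at. Without the replicate block both calls were lost (adjusted p = 1 with limma), as they were without experiment 1 (adjusted p = 0.395 and 0.188), without experiment 2 (0.071 and 0.0554) and when LIPUS 6 h was left out of the fit (0.168 and 0.0909). Over the whole array 1229 probe sets were called with the block, 1 without it and 0 without experiment 1.

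**Figure D2:**
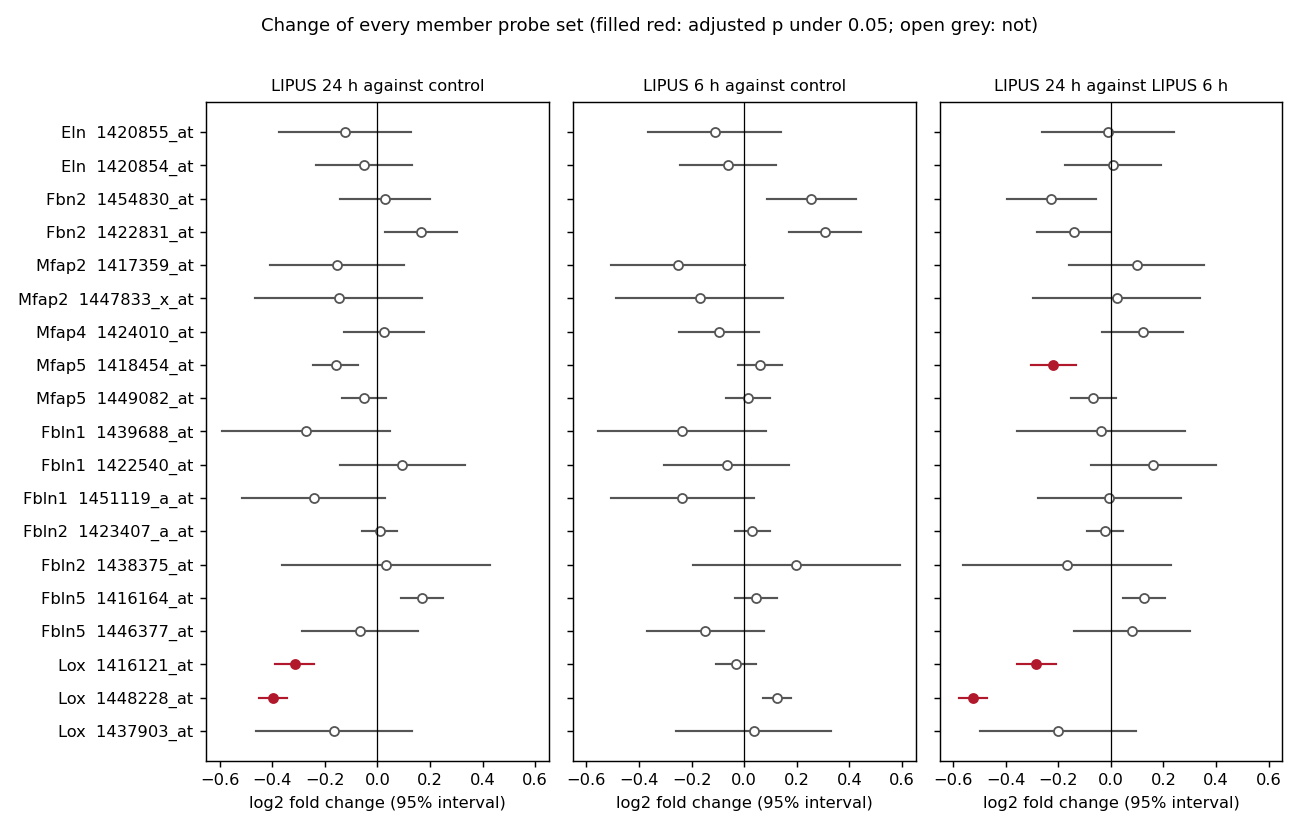
The log2 fold change of each of the 19 probe sets with its 95% interval, for LIPUS 24 h against control, LIPUS 6 h against control and LIPUS 24 h against LIPUS 6 h. Filled red points passed an adjusted p of 0.05 and open grey points did not. The filled points are 2 *Lox* probe sets in the outer panels and *Mfap5* 1418454_at in the right panel.

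The core protein gene, *Eln*, lay only slightly above the median of the array, with averages of 5.52 and 5.24 over all arrays, and did not pass the test. Probe set 1420855_at had 5.45, 5.59 and 5.40 in LIPUS 24 h cells, 5.17, 5.59 and 5.71 in LIPUS 6 h cells, and 5.49, 5.59 and 5.73 in control cells. The groups overlapped, and in experiment 2 the value was the same in all groups. The difference at 24 h was -0.12, with a 95% interval of -0.38 to 0.13 (adjusted p = 0.682 with limma). The other probe set, 1420854_at, gave -0.05 (95% interval -0.23 to 0.13).

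*Fbn2* encodes a fibrillin made mainly during development. Its 2 probe sets were higher at 6 h than in control by value, but neither passed. Probe set 1422831_at had 9.52, 9.62 and 9.04 in LIPUS 24 h cells, 9.72, 9.86 and 9.03 in LIPUS 6 h cells, and 9.38, 9.41 and 8.89 in control cells. Within each experiment both LIPUS arrays were above the control array, by less in experiment 3 at 6 h than in the others, although the groups overlapped. The log2 ratios at 6 h were 0.34, 0.45 and 0.14, with a mean of 0.31 (95% interval 0.17 to 0.45, adjusted p = 0.959 with limma), and at 24 h the mean was 0.17 (95% interval 0.03 to 0.30, adjusted p = 0.287 with limma). Probe set 1454830_at had 9.50, 9.78 and 9.42 in LIPUS 24 h cells, 9.91, 10.05 and 9.42 in LIPUS 6 h cells, and 9.58, 9.70 and 9.32 in control cells. It gave 0.26 at 6 h (95% interval 0.09 to 0.43, adjusted p = 0.959 with limma) and 0.03 at 24 h (95% interval -0.14 to 0.20). Probe set 1422831_at passed at 6 h only without experiment 3, which had the smallest ratio, with a difference of 0.39 (adjusted p = 0.0404 with limma). In every other setting, among them those without experiment 1 or 2, no member probe set was called at 6 h.

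At 6 h after LIPUS none of the 19 probe sets was called in either direction (median log2 difference -0.03), and over the whole array 0% were called higher and 0% lower. At an unadjusted p under 0.05 there were 3 of the 19 and 1575 of all probe sets, and the smallest adjusted p over the array was 0.959. Besides both *Fbn2* probe sets this was *Lox* 1448228_at, with log2 ratios of 0.15, 0.11 and 0.12 at 6 h and a mean of 0.13 (95% interval 0.07 to 0.18, adjusted p = 0.959 with limma). The other *Lox* probe set, 1416121_at, gave -0.03 at 6 h (95% interval -0.11 to 0.04).

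Of the microfibril-associated genes, *Mfap5*, which encodes the small fibrillin-binding glycoprotein MAGP-2, was lower at 24 h than at 6 h. Probe set 1418454_at had 9.14, 9.43 and 9.36 in LIPUS 24 h cells, 9.36, 9.67 and 9.56 in LIPUS 6 h cells, and 9.39, 9.56 and 9.46 in control cells. Within each experiment LIPUS 24 h was the lowest array, and the groups overlapped. Against LIPUS 6 h the difference was -0.22 (SE 0.04, 95% interval -0.30 to -0.13, adjusted p = 0.0307 with limma), a ratio of 0.860 ± 0.0119 (SD, n = 3). Against control it was -0.16 (95% interval -0.24 to -0.08), which did not pass (adjusted p = 0.0802 with limma). The second probe set of *Mfap5*, 1449082_at, had 7.50, 7.91 and 7.34 in LIPUS 24 h cells, 7.62, 7.94 and 7.39 in LIPUS 6 h cells, and 7.61, 7.94 and 7.36 in control cells. These differences had the same sign and did not pass, at -0.07 against LIPUS 6 h (95% interval -0.15 to 0.02) and -0.05 against control (95% interval -0.14 to 0.03).

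*Mfap2*, which encodes the related glycoprotein MAGP-1, had 6.19, 6.39 and 6.13 in LIPUS 24 h cells, 5.85, 6.33 and 6.23 in LIPUS 6 h cells, and 6.29, 6.33 and 6.55 in control cells for 1417359_at. The groups overlapped, and the difference at 24 h was -0.15 (95% interval -0.41 to 0.10, adjusted p = 0.629 with limma). The other *Mfap2* probe set, 1447833_x_at, gave -0.15 with log2 ratios of 0.20, -0.05 and -0.59, which differ in sign. *Mfap4*, whose product binds elastin and collagen, was below the median of the array, at 4.29 ± 0.13 in LIPUS 24 h cells, 4.17 ± 0.14 in LIPUS 6 h cells and 4.27 ± 0.24 in control cells (SD, n = 3 each), and its difference at 24 h was 0.02 (95% interval -0.13 to 0.18).

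Between 24 h and 6 h, 0 of the 19 probe sets were called higher and 3 lower, namely *Lox* 1416121_at, *Lox* 1448228_at and *Mfap5* 1418454_at. Over the whole array 1.14% were called higher and 0.879% lower. *Lox* 1416121_at differed by -0.28 (95% interval -0.36 to -0.21, adjusted p = 0.00775 with limma), with no overlap between the groups, a ratio of 0.822 ± 0.0243 (SD, n = 3). *Lox* 1448228_at differed by -0.52 (95% interval -0.58 to -0.47, adjusted p = 2.61e-04 with limma), a ratio of 0.695 ± 0.0143 (SD, n = 3). The median over the 19 was -0.02, and that of all probe sets was 0.01. This comparison shares its LIPUS 24 h arrays with that against control, so that the calls of the 2 comparisons are not separate evidence. All 3 calls were lost without the replicate block and without experiment 1, and without experiment 3 there were 5, the added ones being the 2 *Fbn2* probe sets.

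**Figure D3:**
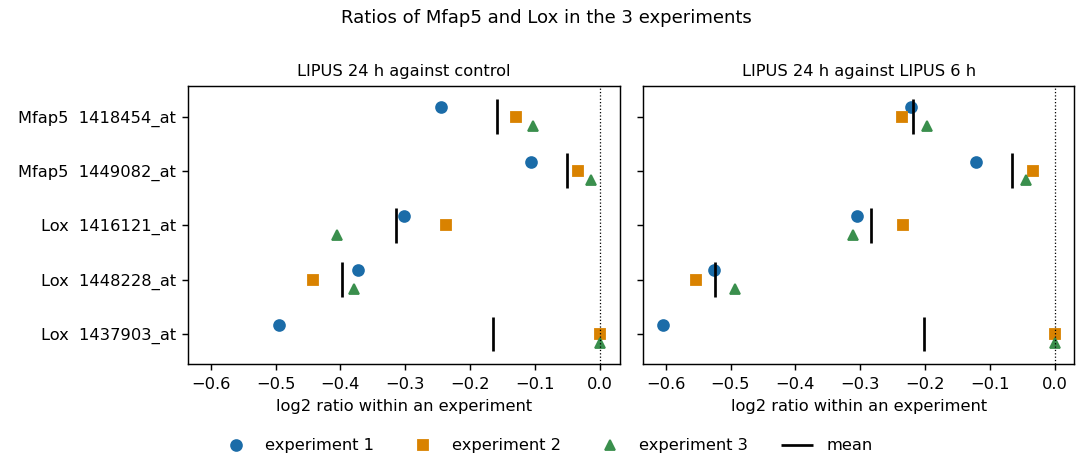
The log2 ratio of LIPUS 24 h to control (left) and of LIPUS 24 h to LIPUS 6 h (right) within each experiment, for the *Mfap5* and *Lox* probe sets, with a black bar for the mean of 3 experiments. *Lox* 1448228_at lies at -0.44 to -0.37 against control and -0.55 to -0.49 against LIPUS 6 h, and the dim *Lox* 1437903_at departs from 0 in experiment 1 only.

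The fibulins did not pass in any comparison. *Fbln5*, whose product binds tropoelastin and integrins and is needed for elastic fibre assembly in mice, came nearest. Probe set 1416164_at had 10.79, 10.80 and 10.48 in LIPUS 24 h cells, 10.59, 10.77 and 10.33 in LIPUS 6 h cells, and 10.57, 10.68 and 10.31 in control cells. Within each experiment LIPUS 24 h was the highest array, and the groups overlapped. The difference from control was 0.17 (SE 0.03, 95% interval 0.09 to 0.25), just short of the threshold (adjusted p = 0.0546 with limma). It passed when only probe sets above the median of the array were tested (adjusted p = 0.028 with limma), of which 7.94% were called. It also passed with array weights (adjusted p = 0.00677 with limma), whose estimation did not converge. The weights ran from 0.1 to 64.36 between arrays, and 20.6% of all probe sets were called with them. With limma *Fbln5* 1416164_at did not pass after quantile normalization (adjusted p = 0.0686), without the variance trend (0.187) or with only the 6 arrays compared (0.25). Nor did it pass without experiment 1, 2 or 3 (adjusted p = 0.534, 0.226 and 0.11 with limma), without the block or with the methods' test. A dim second probe set, 1446377_at, was the same in all groups in experiments 2 and 3 and gave -0.07 at 24 h (95% interval -0.29 to 0.15).

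*Fbln2*, which encodes a fibulin that binds fibrillin and several basement membrane proteins, had the narrowest interval at 24 h among the fibulin probe sets. Probe set 1423407_a_at had 10.99, 11.13 and 10.49 in LIPUS 24 h cells, 10.96, 11.19 and 10.53 in LIPUS 6 h cells, and 10.99, 11.16 and 10.44 in control cells. The experiments lay farther apart than the groups, and the difference at 24 h was 0.01, with a 95% interval of -0.06 to 0.08. Its dim probe set 1438375_at gave 0.03 with a much wider interval of -0.36 to 0.43.

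*Fbln1* encodes a fibulin found in elastic fibres and basement membranes. Probe set 1439688_at had 5.04, 5.68 and 5.16 in LIPUS 24 h cells, 4.87, 5.68 and 5.45 in LIPUS 6 h cells, and 5.14, 5.68 and 5.88 in control cells. The groups overlapped, experiment 2 showed no difference, and most of the mean difference of -0.27 (95% interval -0.59 to 0.05, adjusted p = 0.485 with limma) came from experiment 3, with a log2 ratio of -0.72. The 2 other probe sets, both below the median of the array, gave -0.24 for 1451119_a_at and 0.09 for 1422540_at, and 1422540_at had the same value in all groups in experiments 2 and 3.

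Over the members the experiments generally stood farther apart than the treatments. The range between experiment means was wider than that between group means for 16 of the 19 probe sets, and the 3 others were *Lox* 1416121_at and both *Mfap2* probe sets. The same count was not made over all probe sets, so whether it is particular to the members is not known. Of the 19, 12 had on at least 1 array a value shared with more than 10 other probe sets, and none of these was called. After the mean of each experiment was subtracted, probe sets of one gene followed each other over the 9 arrays with r = 0.92 for the 2 bright *Lox* probe sets, 0.96 for *Eln*, 0.87 for *Fbn2*, 0.87 for *Mfap5* and 0.75 for *Mfap2*. The dim *Lox* probe set gave 0.56 and 0.57 with the bright ones. For *Fbln1* the 3 pairs of probe sets gave 0.95, 0.20 and 0.15. For *Fbln2* and *Fbln5*, where 1 of the 2 probe sets was dim, r was -0.08 and -0.02. Between genes, *Mfap5* 1418454_at ran with *Lox* 1448228_at (r = 0.94) and *Fbln5* 1416164_at ran opposite to *Lox* 1416121_at (r = -0.92). These correlations are descriptions over 9 arrays that share 3 controls and 3 experiments.

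By the same measure the genes most like *Lox* 1416121_at over the 9 arrays were *Fam111a* (r = 0.996), *Arsa* (r = 0.995) and *Anxa4* (r = 0.993). Those most like *Lox* 1448228_at were *Top2a* (r = 0.997), *Aspm* (r = 0.991) and *Pnp* (r = 0.991). *Top2a* and *Aspm* encode a topoisomerase and a spindle protein of dividing cells, *Arsa* a lysosomal sulfatase, *Anxa4* a calcium-dependent membrane-binding protein and *Pnp* an enzyme of purine salvage. The lists of the 2 *Lox* probe sets had no gene in common. For *Mfap5* 1418454_at, added after the values were seen, they were *Cenpi* (r = 0.987), *Cenpw* (r = 0.986) and *Brca1* (r = 0.985). *Cenpi* and *Cenpw* encode centromere proteins and *Brca1* a DNA repair protein. All these genes were picked for the highest r among many probe sets, and such picking over 9 arrays favours high values. The dim *Lox* 1437903_at, with equal values in all groups of 2 experiments, reached r = 1 with *Zfp511*, *Bdh2* and *Cep350*. A link of *Lox* or *Mfap5* to cell division was not tested.

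Genes that act beside the members were counted with the brightest probe set for each. Among other proteins of elastic fibre and microfibril assembly, 19 of 20 listed genes were measured, with a median of -0.02 at 24 h against control. Of these, 0 were called higher and 1 lower, against 1.8% and 0.933% of all probe sets. The lower one was *Ltbp2*, whose product is a fibrillin-binding relative of the latent TGF-β binding proteins. *Ltbp2* averaged 8.33 ± 0.12 in LIPUS 24 h cells, 8.93 ± 0.19 in LIPUS 6 h cells and 8.86 ± 0.14 in control cells (SD, n = 3 each). The log2 ratios to control were -0.66, -0.57 and -0.38, with a mean of -0.53 (adjusted p = 0.0101 with limma), and LIPUS 24 h also lay below LIPUS 6 h, by a log2 difference of -0.60 (adjusted p = 0.00783 with limma). Against LIPUS 6 h, *Vcan*, the gene of the proteoglycan versican, and *Fn1*, that of fibronectin, were lower as well, at -0.29 (adjusted p = 0.0488 with limma) and -0.13 (adjusted p = 0.0442 with limma).

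Of the other genes of crosslinking and processing, 9 of 10 listed were measured, with a median of 0.04 at 24 h against control. Of these, 0 were called in any comparison, against 1.8% higher and 0.933% lower of all probe sets at 24 h. The lowest values in this list were those of the *Lox* relatives *Loxl4*, at -0.26 (95% interval -0.40 to -0.12, adjusted p = 0.0831 with limma), and *Loxl1*, which is needed for the upkeep of elastic fibres in mice, at -0.19 (95% interval -0.30 to -0.07, adjusted p = 0.118 with limma). Neither difference passed.

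Among the proteases able to degrade elastin, some members were higher. All 8 listed genes were measured, and 3 were called higher and 0 lower at 24 h against control, with a median of 0.04. Over all probe sets 1.8% were called higher and 0.933% lower. The gelatinase gene *Mmp9* averaged 6.50 ± 0.33 in LIPUS 24 h cells, 6.01 ± 0.40 in LIPUS 6 h cells and 6.03 ± 0.35 in control cells (SD, n = 3 each), a difference from control of 0.47 (adjusted p = 0.00457 with limma). *Ctsk*, the gene of cathepsin K, averaged 10.35 ± 0.14 in LIPUS 24 h cells, 9.91 ± 0.19 in LIPUS 6 h cells and 9.95 ± 0.14 in control cells, a difference of 0.40 (adjusted p = 0.0017 with limma). *Mmp2*, the gene of the other gelatinase, averaged 12.69 ± 0.22 in LIPUS 24 h cells, 12.51 ± 0.20 in LIPUS 6 h cells and 12.49 ± 0.22 in control cells, a difference of 0.21 (adjusted p = 0.0136 with limma). All 3 were higher in LIPUS 24 h than in control in each experiment, and the same 3 were called higher against LIPUS 6 h. Of the proteases that did not pass, *Ctsl* and *Mmp14* lay above the median of the array, with differences of -0.05 and -0.01. *Mmp12* and *Elane*, which encode macrophage and neutrophil elastase, and *Ctss* lay below it, with -0.12, -0.07 and 0.09. The calls on *Ltbp2* and the proteases were lost without experiment 1, as was every other call of the array.

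**Figure D4:**
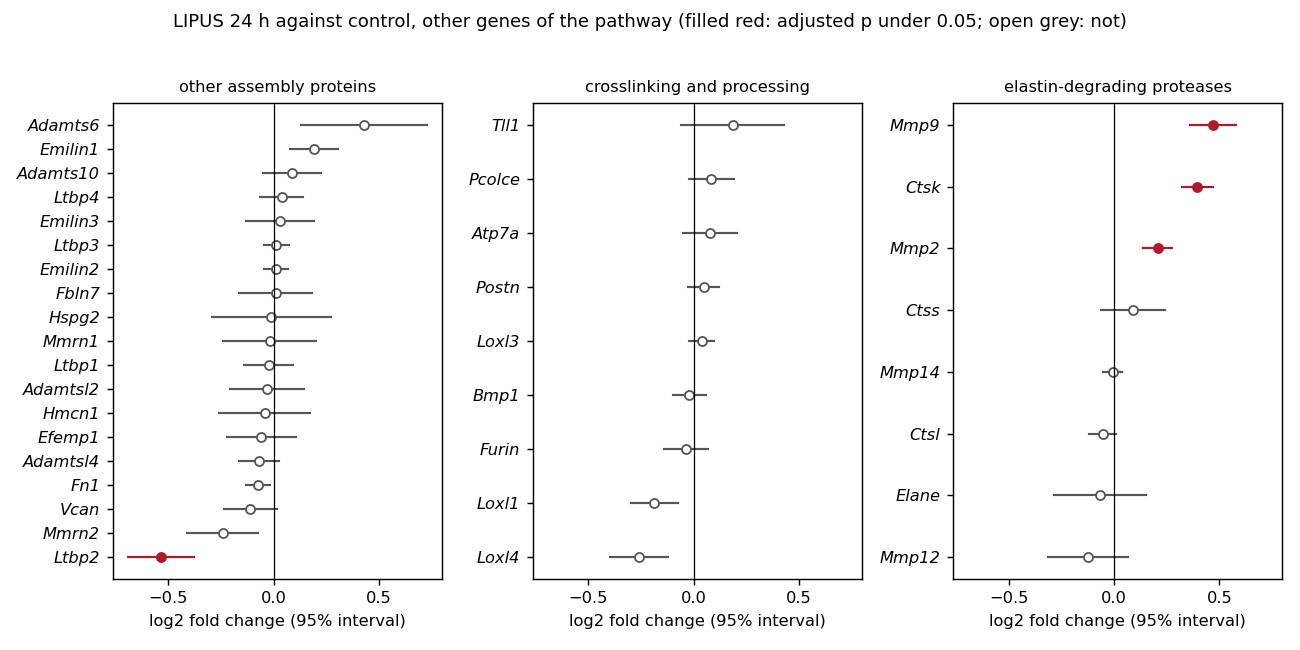
The log2 fold change of LIPUS 24 h against control, with its 95% interval, for the other genes of the pathway in 3 lists, each gene by its brightest probe set. Filled red points passed an adjusted p of 0.05 and open grey points did not: *Ltbp2* at -0.53 among the assembly proteins, and *Mmp9*, *Ctsk* and *Mmp2* at 0.47, 0.40 and 0.21 among the proteases.

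Markers of other cells that make elastic fibres or lie near bone were read on the same arrays. Of 6 smooth muscle markers, 5 lay above the median of the array, and 1 was called, *Cnn1*, higher in LIPUS 24 h than in control by 0.29 (adjusted p = 0.0198 with limma). The mean level over that list ranged from 8.34 to 8.75 in LIPUS 24 h cells, from 8.23 to 8.70 in LIPUS 6 h cells and from 8.33 to 8.70 in control cells. Of 6 chondrocyte markers, 3 lay above the median and *Col2a1* was lower in LIPUS 24 h than in control by a log2 difference of -0.82 (adjusted p = 9e-05 with limma). The mean level over this list ranged from 5.67 to 5.94 in LIPUS 24 h cells, from 5.73 to 6.14 in LIPUS 6 h cells and from 5.83 to 6.09 in control cells. None of 6 macrophage, 5 endothelial and 5 measured adipocyte markers was called, and 1 of each list lay above the median. At 24 h against control 1.8% of all probe sets were called higher and 0.933% lower. The part of such cells in the results on *Lox*, *Ltbp2* and the proteases was not tested.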

How the data were processed

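RNA of MC3T3-E1 cells was measured on 9 arrays of 45101 probe sets. The deposited log2 values had been made by the authors with RMA, per the labels; its version and settings are not given in the sources used here. The 64 control probe sets were left out and the values were not transformed further. The annotation gave 1 symbol for 34945 probe sets, several for 932 and none for 9160, and only probe sets with 1 symbol were named. No sequence or coordinate is shown.

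Comparisons used limma 3.58.1 in R 4.3.3 (lmFit and eBayes with an intensity trend, 4 residual and 3 prior degrees of freedom) over the 9 arrays, blocked by experiment, and Benjamini-Hochberg adjustment over 45037 probe sets. The pairing rests on the replicate numbers of the labels. Deviations from the group means correlated by 0.7 to 0.93 in 9 same-numbered pairs of arrays and by -0.67 to 0.01 in 18 other pairs. The procedure was tested on simulated data.

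Every probe set of the members was named. Of other lists, up to 4 genes that passed at 24 h by size were named, or up to 2 by value where none passed, and for a member that passed at 24 h against control the 3 genes most like it. *Vcan*, *Fn1*, *Ctsl*, *Mmp14*, *Mmp12*, *Elane*, *Ctss*, *Cnn1*, *Col2a1*, the genes most like *Mfap5*, and the markers were named after their values were seen. Members and lists were chosen with earlier results of these data known. *Efemp2*, *Loxl2*, *Runx2*, *Bglap*, *Spp1* and *Plin1* of the lists were not analysed here. Alternatives concerned the block, the variance trend, the arrays and experiments used, quantile normalization, dim probe sets, array weights, the test of the study's methods, and 1 probe set per gene. Precision is limited by the 3 arrays in each group.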

Additional observations from a re-analysis of the deposited data

Results flagged for a closer look

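For 3 probe sets the difference from the same control arrays was not the same at 24 h as at 6 h after LIPUS, by the limma comparison of LIPUS 24 h with LIPUS 6 h. *Lox* 1448228_at was -0.40 at 24 h and 0.13 at 6 h, a difference of -0.52 (adjusted p = 2.61e-04), lower at 24 h in 3 of 3 experiments. *Lox* 1416121_at was -0.31 at 24 h and -0.03 at 6 h, a difference of -0.28 (adjusted p = 0.00775), lower in 3 of 3. *Mfap5* 1418454_at was -0.16 at 24 h and 0.06 at 6 h, a difference of -0.22 (adjusted p = 0.0307), lower in 3 of 3. Groups of 3 arrays are too small to screen for single outlying arrays.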

How the results depend on the processing

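No alternative reversed a called direction, but only quantile normalization, array weights and leaving out an experiment can change a difference. Against control at 24 h, 2 of the 19 probe sets were called. The count was 0 without the replicate block, 0 with only the 6 arrays compared, 0 with the methods' test, 4 of 13 (1 higher, 3 lower) with only probe sets above the median, and 6 (3 higher, 3 lower) with array weights, whose estimation did not converge. It was 0 to 2 when 1 experiment was left out, 3 after quantile normalization and 2 without the variance trend. At 6 h the count was 0, and 0 to 1 when 1 experiment was left out. Between 24 h and 6 h it was 3, with 0 without the block, 1 without the variance trend, 0 with only the 6 arrays compared, 0 with the methods' test, 5 (1 higher, 4 lower) with array weights, and 0 to 5 when 1 experiment was left out. Quantile normalization and the filter on dim probe sets each left 3 there. Over the whole array the count at 24 h was 1229, against 1 without the block and 522 without the trend. It was 5 with only the 6 arrays compared, 0 with the methods' test, 9276 with array weights and 1322 after quantile normalization. Without experiment 1, 2 and 3 it was 0, 49 and 1439, and with only probe sets above the median 1789 of 22518 (7.94%). Between 24 h and 6 h the whole-array count was 909. It was 0 without the block, 354 without the trend and 8 with only the 6 arrays compared. There it was 0 with the methods' test, 5482 with array weights, 1080 after quantile normalization and 1282 of 22518 (5.69%) with the filter. Without experiment 1, 2 and 3 it was 0, 44 and 1498. *Mfap5* 1418454_at at 24 h against control passed after quantile normalization (adjusted p = 0.0337), with the filter (adjusted p = 0.0408) and with array weights (adjusted p = 0.00171). With limma it did not pass without the trend (adjusted p = 0.21) or with only the 6 arrays compared (0.409). Nor did it pass without experiment 1, 2 or 3 (adjusted p = 0.291, 0.465 and 0.0809 with limma), without the block or with the methods' test. The causes were not tested. Values shared with many other probe sets limit what can be seen for *Eln*, *Fbln1*, *Mfap2* and *Mfap4*, although the *Eln* and *Mfap2* probe sets lay above the median of the array.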
